A study of Caenorhabditis elegans with 8 samples.

Results

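Wild-type embryos of Caenorhabditis elegans were set against wild-type young adults, with 2 arrays in each group, which are 4 of the 8 arrays of the study. Both groups were of strain N2 and carried no deletion or treatment, apart from the hypochlorite step described next for the embryos. The embryos were freed by hypochlorite from gravid adults of 52 h after the L1 stage, each sample coming from about 40000 such adults, and the labels give them no embryonic stage, so a sample is a pool of eggs of mixed age. The adults were whole animals of 52 h after L1, so they held the cuticle, gut, muscle and germ line together with any eggs still inside. The other 4 arrays, of embryos and adults that lack seip-1, entered only the estimate of the spread between arrays. Testing needed a probe that the scanner software rated well above background on every array of at least 1 of these groups, which held for 16126 of the 20004 genes with a named probe. The other 3878 did not meet this rule and were left out of the main test. A gene that met it is called measured below.

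A worm embryo starts from RNA that its mother loaded into the oocyte, and its own genome is switched on after a few divisions, lineage by lineage, through short-lived transcription factors. Later in the egg the cells stop dividing, the epidermis encloses and elongates the body, and the first cuticle is laid down. The young adult hermaphrodite makes yolk in its intestine, stores sperm, ripens oocytes and wears a cuticle built from its own set of collagens.

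On the array level the groups differed before any gene was compared. Of the probes, 65.7% and 66.6% were well above background in embryos and 70.8% and 68.3% in adults. The 75th percentile of the processed signal was 1387 and 1470 in embryos, against 2673 and 2302 in adults, and the median signal was 74.7 and 77.4, against 275 and 224. Embryos were hybridised on 1 slide and adults on a second one, so the effects of slide and stage cannot be told apart. The hypochlorite step is described for embryos only, so its effect cannot be told apart from that of stage either. Replicates of a stage differed with a standard deviation of 0.39 in embryos and 0.41 in adults on the log2 scale. The labels do not say that the replicates are separate cultures, so a p-value measures the spread between these samples. The RNA is of whole animals, and fewer cells of a type cannot be told apart from less RNA per cell.

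Signals are given below as multiples of the 75th percentile of their own array (relative signal), embryos first. Differences are log2 of embryos minus adults, with the standard error of the fit after the sign ±. A gene passed where limma's adjusted p was under 0.05. A gene not well above background on either array of a group has only a bound there, written as "at least". Levels of different probes are not compared with each other.

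Markers of embryo, adult soma and sperm fell on the side that their stage labels name. All 9 embryo markers were higher in embryos, and 7 of them were not above background in adults, with a summed relative signal of 14.9 and 15.2 in embryos, against 0.0696 and 0.0833 in adults. The 5 markers of the adult soma were all lower in embryos, at 0.0842 and 0.0828, against 378 and 429 in adults, and so were the 5 sperm markers, at 0.195 and 0.140, against 88.3 and 80.95. In each of these sets 2 members were not above background in embryos. A marker at background in a group was tested because it was visible in the other, so its side was fixed by its entry. The 4 late-embryo markers were all higher, at 19.7 and 17.2, against 3.06 and 2.84, but elt-3 among them turns negative with the spike-in scaling described below. Of 5 oocyte and maternal markers 3 were higher and 2 lower, at 34.6 and 42.1, against 75.3 and 92.9, and the 3 higher ones, oma-1, pie-1 and mex-5, turn negative with that scaling. The 3 larval markers split, with mlt-10 higher and col-17 and col-10 lower, and their sum was 2.93 and 2.97, against 4.48 and 1.96, where the groups overlap.

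Most of the measured genes differed between the stages. Of the 16126, 6682 were higher in embryos (41.4%) and 6870 were lower (42.6%), 84% in all, by limma's moderated test with Benjamini-Hochberg adjustment over all of them. The arrays of the groups did not overlap for 94.3%. At least 2-fold differences were found for 10807 genes and at least 16-fold differences for 3525, of which 906 were higher and 2619 lower. Embryos lacked a signal above background for 1993 genes (12.4%) and adults for 979 (6.07%). Such a gene was tested because it was visible in the other group, so its direction was fixed by its entry. For lists and families with under 60% of their members above background on all 4 arrays, the counts among those members are added, a limit set after the values were seen. They are to be read beside all 12432 measured genes whose probe was above background on all 4 arrays. Of these 5487 were higher and 4538 lower (median 0.22). The further families under the last heading are given without these counts. A gene above background on 1 array of a group is given without a fold.

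The split between higher and lower rests on how arrays are brought to 1 scale. With the 75th percentile the median of all differences was 0.01, and it became 0.92 when each array was scaled to its median, 0.16 after quantile normalization and -1.66 when arrays were scaled to their 10 spike-in probes, a setting chosen after the data were seen. The spike-in probes themselves differed by 0.74 at the median, from -0.89 to 1.13. In all 4 scalings 2227 genes were called higher (13.8%) and 5320 lower (33%), and these counts are given for each gene group as "in all 4". With the spike-in scaling alone 2227 were higher, and with the median scaling alone 5331 were lower. Each direction is thus limited mainly by 1 scaling, and not by the same one. A modest difference can turn round with the scaling, which is said where it happens. A gene group with about 41.4% of its members higher or 42.6% lower has the share of all genes.

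**Figure D1:**
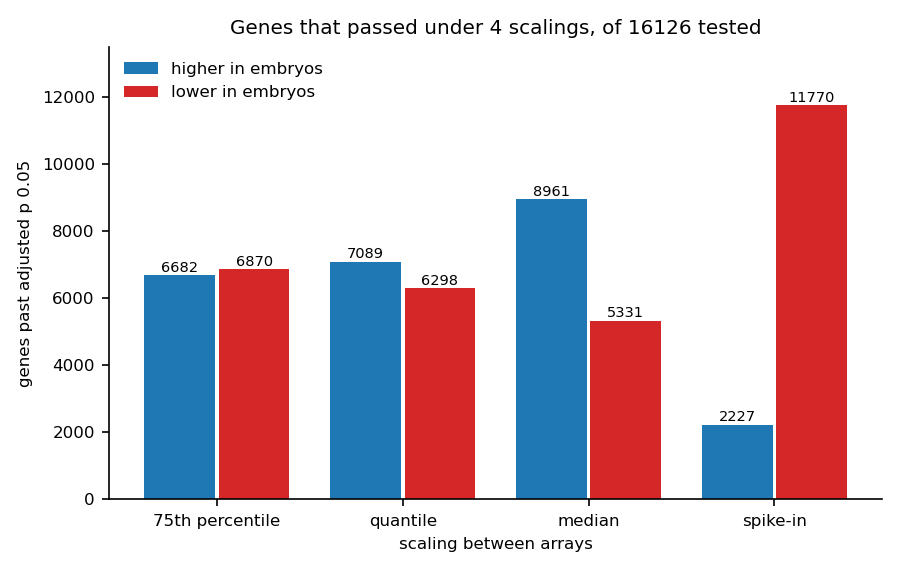
Number of genes (vertical axis) that passed limma's adjusted p of 0.05 in wild-type embryos against wild-type young adults, under 4 ways of scaling the arrays; blue bars are genes higher in embryos and red bars genes lower in embryos. The counts are 6682 and 6870 with the 75th percentile, 7089 and 6298 with quantiles, 8961 and 5331 with the median and 2227 and 11770 with the spike-in probes.

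The yolk protein genes had the lowest median of the 55 gene lists described here. All 5 measured vitellogenin genes, which encode the lipoproteins that the intestine exports to the oocytes, were lower in embryos in all 4 scalings, with a median of -11.78. The relative signal of vit-2 was 0.0123 and 0.0164 in embryos, against 71.7 and 82.4 in adults, a 5429-fold difference (-12.41 ± 0.19, adjusted p = 1.27e-07). For vit-5 it was 0.0464 and 0.0466 in embryos, against 146 and 163 in adults, and 3311-fold lower. vit-6 was not above background in embryos, with 0.00377 and 0.00232 in embryos, against 71.2 and 83.1 in adults, and was at least 7553-fold lower. In each of these genes both embryo arrays lay far below both adult arrays. rme-2, the receptor through which oocytes take up yolk, showed 3.004 and 4.36 in embryos, against 51.6 and 63.7 in adults, and was 15.8-fold lower (-3.99 ± 0.27).

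Sperm genes followed the same direction. All 24 major sperm protein genes, whose products move the amoeboid sperm and signal to oocytes, were lower in embryos in all 4 scalings, with a median of -9.57 and a range from -11.78 to -8.44. msp-142 had 0.00510 and 0.00519 in embryos, against 15.3 and 13.1 in adults, and was at least 1392-fold lower, while msp-3 had 0.0504 and 0.0578 in embryos, against 48.5 and 48.8 in adults, and was 901-fold lower. The copies of this family are nearly identical, so 1 probe may report several of them. Of 66 other sperm genes 63 were lower, 59 of them in all 4, with a median of -6.34, and 24 were not above background in embryos. spe-11, which encodes a sperm-supplied factor needed by the embryo, had 0.00250 and 0.00226 in embryos, against 1.18 and 0.941 in adults, and was at least 103.3-fold lower. gsp-4, a sperm protein phosphatase, had 0.0180 and 0.0211 in embryos, against 7.75 and 5.65 in adults, and was 339.7-fold lower. The Argonautes of spermatogenesis were lower too: alg-3 was at least 219-fold lower, with 0.0112 and 0.00762 in embryos, against 2.599 and 2.001 in adults, and the brightest probe of alg-4 at least 368-fold lower, with 0.00391 and 0.00624 in embryos, against 4.32 and 3.26 in adults, though a dimmer alg-4 probe ran the other way at 1.66. Of the sperm list spe-48 and try-5 were higher, by 0.75 ± 0.16 and 1.71 ± 0.15, neither in all 4: with the spike-in scaling spe-48 turns negative and try-5 stops passing. Among the 38 members above background on all 4 arrays 2 were higher and 35 lower (median -5.44).

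The col genes, which encode cuticle collagens, held the largest differences among the list members. Of 141 measured, 104 were lower in embryos (98 in all 4), 16 higher (8 in all 4) and 21 did not pass, with a median of -3.99. col-19, a collagen of the adult cuticle, had 0.00268 and 0.00243 in embryos, against 86.3 and 93.8 in adults, and was at least 8836-fold lower. col-142 had 0.00480 and 0.00247 in embryos, against 130.4 and 146 in adults, and was at least 13560.0-fold lower, and col-80, with 0.0112 and 0.00508 in embryos, against 154 and 173 in adults, at least 15664-fold lower. col-106, col-139, col-143 and col-81 were also at background in embryos, with bounds of 10282, 9504, 8353 and 6369-fold. Among genes seen in both groups, col-129 had 0.0190 and 0.0204 in embryos, against 172 and 192 in adults, a 9252-fold difference (-13.18 ± 0.15), and col-124, col-147 and col-7 were 6348, 3596 and 3122-fold lower. col-179 and col-181 were lower too but were above background on 1 embryo array only, col-179 with 0.0598 and 0.00935 in embryos, against 75.2 and 85.5 in adults. A few members ran the other way and were nearly silent in adults. col-74 had 9.87 and 10.04 in embryos, against 0.00981 and 0.0104 in adults, and was at least 891-fold higher in embryos, and col-121, with 1.74 and 1.62 in embryos, against 0.00251 and 0.00330 in adults, at least 151-fold higher.

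The collagens that set body shape divided by member. Of 20, 15 were lower and 5 higher, 14 and 5 of them in all 4, with a median of -4.20. The bright embryonic members were dpy-14, with 47.2 and 42.5 in embryos, against 0.0176 and 0.0174 in adults, and 2560.1-fold higher (11.32 ± 0.18), dpy-17, with 62.9 and 58.1 in embryos, against 0.331 and 0.317 in adults, and 187-fold higher, and dpy-7, with 1.61 and 1.63 in embryos, against 0.0738 and 0.0410 in adults, and 29.4-fold higher. dpy-2 was 17.6-fold higher. On the adult side dpy-13 had 0.0325 and 0.0322 in embryos, against 15.9 and 7.796 in adults (-8.43 ± 0.66), rol-6, above background on 1 embryo array, had 0.00753 and 0.00988 in embryos, against 1.17 and 0.592 in adults, and bli-1, which builds the struts of the adult cuticle, had 0.00288 and 0.00261 in embryos, against 0.191 and 0.0929 in adults, and was at least 13.1-fold lower. The probes of sqt-3 disagreed, from -1.05 for the brightest, at 73.3 and 68.97 in embryos, against 141 and 154 in adults, to 4.73 for another, so its direction is not settled.

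Genes of the intestine and its defences were mostly lower in embryos. Of 23 aspartyl and cathepsin-type protease genes, some of which digest food proteins, 21 were lower and 2 higher (21 and 1 in all 4, median -5.63). cpr-1 had 0.0375 and 0.0341 in embryos, against 53.5 and 66.4 in adults, and was 1669-fold lower (-10.70 ± 0.32), and asp-1, with 5.98 and 5.92 in embryos, against 87.3 and 95.00 in adults, was 15.3-fold lower. Of 72 lysozyme, saposin-like and other antimicrobial genes 55 were lower and 10 higher (median -5.55, 51 and 3 in all 4). The 9 cnc genes were divided, with 5 higher and 3 lower (1 higher and 2 lower in all 4, median 1.42). The lysozyme gene lys-7 had 0.00748 and 0.00688 in embryos, against 11.55 and 13.7 in adults, and was at least 1236-fold lower, and ilys-5, an invertebrate-type lysozyme gene, had 0.0761 and 0.0713 in embryos, against 117 and 132 in adults, and was 1692-fold lower. A list of 31 genes of intestinal function counted 24 lower and 3 higher (2 higher and 22 lower in all 4, median -3.41). The metallothionein gene mtl-2, above background on 1 embryo array, had 0.0109 and 0.0137 in embryos, against 17.7 and 14.6 in adults, the gut esterase gene ges-1 was 10.6-fold lower, and the fatty acid binding protein gene lbp-1 was 7.95-fold higher, at 50.96 and 42.7 in embryos, against 5.67 and 6.08 in adults.

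C-type lectin genes, many of them known for defence, gave 119 lower and 23 higher of 153 (11 higher and 111 lower in all 4, median -3.62), and 69 of them were not above background in embryos. Of the 63 members above background on all 4 arrays 10 were higher and 46 lower (median -3.41). clec-47 had 0.00288 and 0.00261 in embryos, against 15.5 and 16.05 in adults, and was at least 1549-fold lower. clec-63 had 0.411 and 0.425 in embryos, against 50.2 and 52.5 in adults, and was 123-fold lower. Members of the same family ran the other way: clec-266 had 37.2 and 32.6 in embryos, against 0.00592 and 0.0198 in adults (adjusted p = 1.23e-05), and clec-196 had 26.8 and 22.7 in embryos, against 0.0140 and 0.00821 in adults, both above background on 1 adult array only. clec-88 and clec-91 were 4.43 and 3.67-fold higher and stop passing with the spike-in scaling.

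Fatty acid desaturase and elongase genes were mostly lower as well. None of 15 was called higher and 13 were lower, 9 of them in all 4 (median -3.96). fat-6, which makes oleic acid, had 0.146 and 0.109 in embryos, against 21.1 and 26.03 in adults, and was 186-fold lower, and fat-2, the next desaturase on the path to polyunsaturated fatty acids, had 0.231 and 0.221 in embryos, against 28.2 and 33.4 in adults, and was 136-fold lower. The adult arrays differed for fat-7, at 0.0191 and 0.0151 in embryos, against 2.82 and 6.64 in adults, but lay far above both embryo arrays. elo-5, an elongase for branched-chain fatty acids, was 776-fold lower, with 0.0133 and 0.0115 in embryos, against 10.1 and 9.09 in adults. Of 6 lysosomal lipase genes 5 were lower, all of these in all 4, with lipl-5 at 0.0221 and 0.0175 in embryos, against 27.2 and 31.1 in adults, and lipl-7 was 2.13-fold higher, not with the spike-in scaling. Of the 3 lipases above background on all 4 arrays 1 was higher and 2 lower (median -2.53). Cytochrome P450 genes counted 44 lower and 14 higher of 63 (5 higher and 38 lower in all 4, median -2.31), UDP-glucuronosyltransferase genes 42 and 14 of 64 (6 higher and 31 lower in all 4, median -1.43), and glutathione transferase and antioxidant genes 32 and 19 of 64 (3 higher and 25 lower in all 4, median -0.52, which the median scaling turns to 0.39), where 50% of the members were lower, against 42.6% of all genes. Of 54 transthyretin-related genes 47 were lower (2 higher and 46 lower in all 4, median -4.50). Exceptions in that family were ttr-50, with 119 and 108 in embryos, against 1.46 and 2.34 in adults, and 61.4-fold higher, and ttr-52, which links dying cells to the cells that engulf them and was at least 36.8-fold higher, with 0.445 and 0.374 in embryos, against 0.00431 and 0.00650 in adults.

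**Figure D2:**
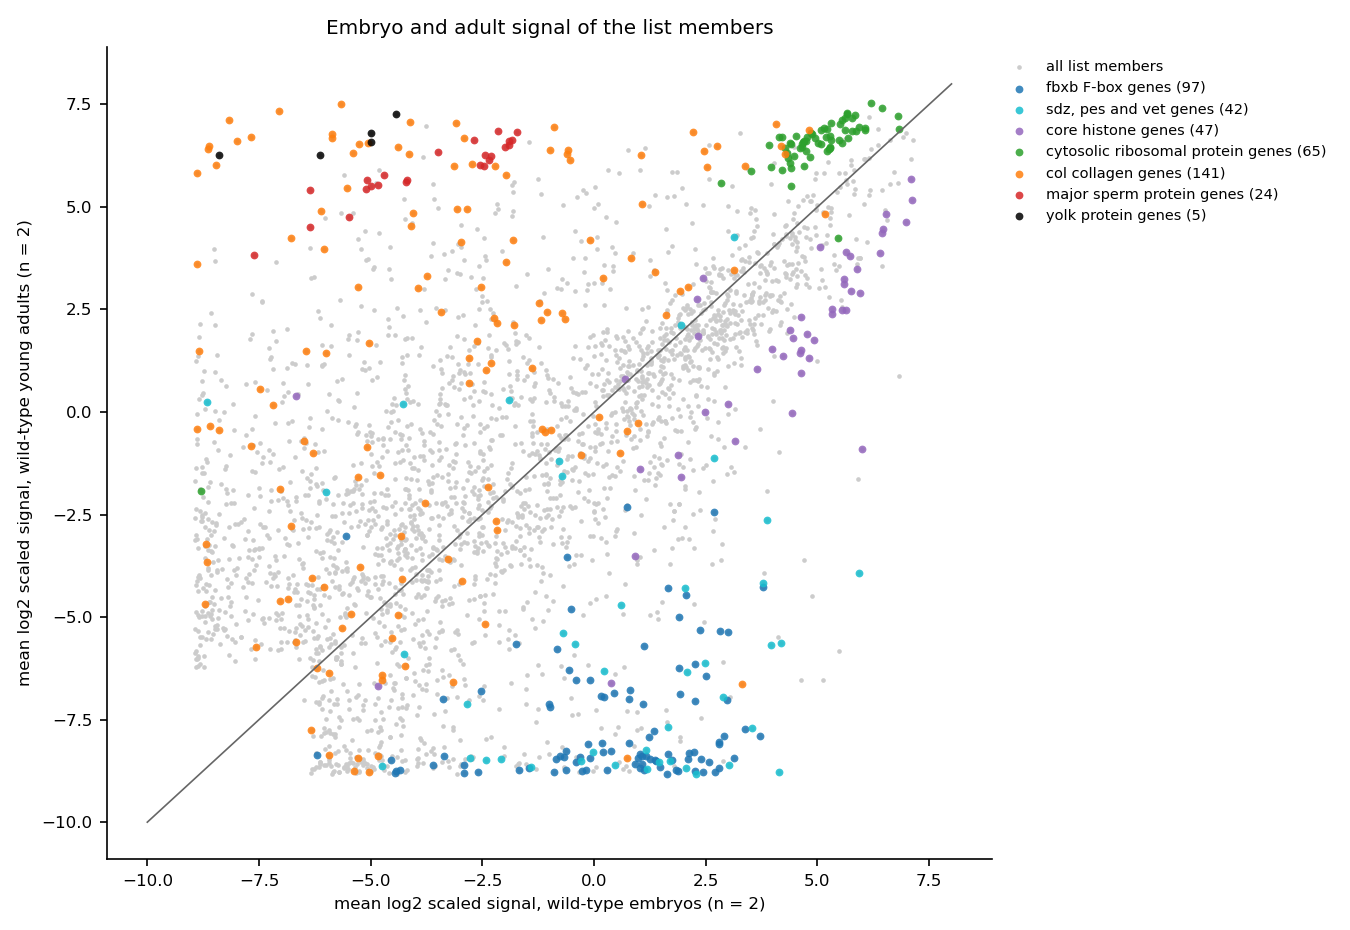
Mean log2 relative signal of each list member in wild-type embryos (horizontal axis, 2 arrays) and in wild-type young adults (vertical axis, 2 arrays), with 7 families in colour and the line of equal signal in grey. All 24 major sperm protein genes, all 5 yolk protein genes and most col genes lie above the line, where adults are higher, and 96 of 97 fbxb genes lie below it.

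Eggshell genes, whose products are made in the oocyte and assembled around the egg at fertilization, were mixed. Of 25, 16 were lower in embryos and 4 higher, 13 and 1 of them in all 4, with a median of -1.57. perm-2, needed for the permeability barrier, had 0.0201 and 0.0214 in embryos, against 51.4 and 59.6 in adults, and was 2664-fold lower, and perm-4, above background on 1 embryo array, had 0.00700 and 0.0237 in embryos, against 9.06 and 10.4 in adults. The chitin synthase gene chs-1 had 1.03 and 1.34 in embryos, against 10.8 and 13.5 in adults, and was 10.3-fold lower, the vitelline layer gene cbd-1 was 4.101-fold lower and the proteoglycan gene cpg-2 was 5.53-fold lower, at 8.73 and 13.6 in embryos, against 55.9 and 65.1 in adults. The 4 higher ones were gna-1, an enzyme that supplies the chitin precursor (4.04-fold), the kinase gene mbk-2 (2.55-fold), perm-3 (2.18-fold) and the fatty acid synthase gene fasn-1 (1.502-fold), and of these gna-1 alone was higher in all 4 scalings, the others turning negative with the spike-in scaling.

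Regulators that mothers store in the oocyte differed by small amounts. Of 30 maternal RNA-binding fate regulators 16 were higher and 5 lower, but 1 and 2 in all 4, and their median of 0.55 became -1.12 with the spike-in scaling. mex-5, a regulator of the first asymmetric divisions, had 10.9 and 12.96 in embryos, against 3.97 and 4.89 in adults (1.43 ± 0.20), pos-1 had 85.7 and 89.4 in embryos, against 37.5 and 48.1 in adults (1.04 ± 0.25) and the germline gene nos-2 had 16.6 and 19.7 in embryos, against 3.86 and 5.39 in adults (1.98 ± 0.30), and the first and the second turn negative with the spike-in scaling, while nos-2 only stops passing. The member that was higher in all 4 was mex-1, at 5.67 and 6.13 in embryos, against 1.09 and 1.41 in adults (2.25 ± 0.24). The germline stem cell regulator fbf-2 was 7.06-fold lower, with 0.235 and 0.305 in embryos, against 1.79 and 1.998 in adults, and lin-41, which acts in growing oocytes, was 3.62-fold lower, both in all 4. gld-1 did not pass, at 8.79 and 11.4 in embryos, against 10.73 and 12.3 in adults (-0.20 ± 0.20).

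P granule genes split evenly, 6 higher and 5 lower of 15, 1 and 2 of them in all 4 (median -0.02, 0.89 with the median scaling). The Vasa-type helicase gene glh-1 was 5.36-fold lower, with 8.73 and 8.36 in embryos, against 44.9 and 46.7 in adults, and pgl-3 was 3.797-fold lower, while meg-2 was 4.94-fold higher, all in all 4. meg-1, meg-3 and meg-4 were also higher, by 1.35 ± 0.27, 1.94 ± 0.26 and 1.49 ± 0.31, where meg-1 and meg-4 turn negative with the spike-in scaling. Meiotic genes gave 12 higher and 7 lower of 31, with 0 and 1 in all 4; the cohesin gene rec-8 was 1.85-fold lower, which the median scaling undoes, and the recombinase gene rad-51 3.74-fold higher, at 44.7 and 44.2 in embryos, against 11.54 and 12.2 in adults. Among Argonaute and small RNA genes 31 of 55 were higher and 11 lower, 6 of the lower ones in all 4 (median 0.65, -1.02 with the spike-in scaling). The microRNA Argonaute alg-2 was 14.3-fold higher, with 4.13 and 4.09 in embryos, against 0.269 and 0.309 in adults, and nrde-3, the Argonaute of nuclear silencing in the soma, 18.8-fold higher, with 10.73 and 10.2 in embryos, against 0.471 and 0.652 in adults; these were the 2 members higher in all 4.

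**Figure D3:**
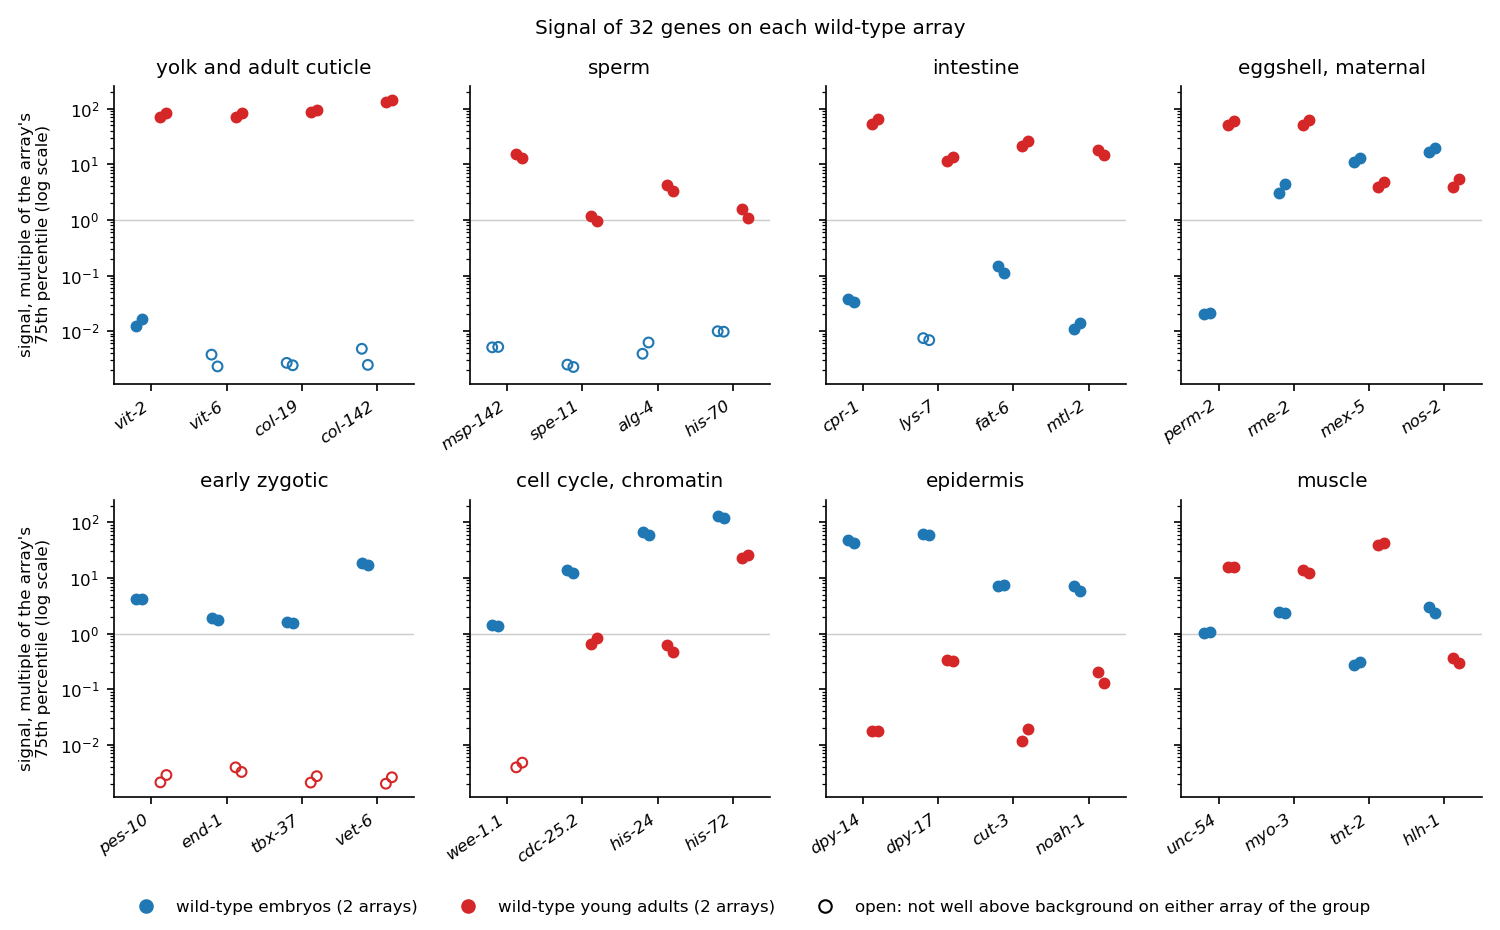
Relative signal (multiple of the array's 75th percentile, logarithmic axis) of 32 genes on the 2 wild-type embryo arrays (blue, left of each pair) and the 2 wild-type young adult arrays (red); open circles mark a group with no array well above background. The groups are apart for every gene shown, with adults above in the yolk, cuticle, sperm and intestine panels and embryos above in the early zygotic panel.

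Genes of the first zygotic transcription had the highest median of the 55 lists. Of 42 sdz, pes and vet genes, named for SKN-1-dependent zygotic, patterned and very early transcripts, 36 were higher, 33 of them in all 4, 5 were lower, 4 of them in all 4, and 20 were not above background in adults (median 6.89). Of the 17 members above background on all 4 arrays 12 were higher and 4 lower (median 4.69). pes-10, a marker of the onset of zygotic transcription, had 4.102 and 4.21 in embryos, against 0.00210 and 0.00285 in adults, and was at least 375-fold higher. vet-6 had 18.4 and 16.9 in embryos, against 0.00199 and 0.00260 in adults, and was at least 1592-fold higher, and sdz-28, with 11.9 and 11.2 in embryos, against 0.00367 and 0.00636 in adults, at least 1042-fold higher. Among members seen in both groups, pes-2.1 had 63.3 and 58.3 in embryos, against 0.0525 and 0.0819 in adults (9.85 ± 0.45), sdz-25 had 18.5 and 17.8 in embryos, against 0.0146 and 0.0281 in adults (9.81 ± 0.58) and vet-1 had 15.6 and 15.3 in embryos, against 0.0149 and 0.0254 in adults (9.63 ± 0.35). The 5 lower ones included pes-23, at background in embryos with 0.00259 and 0.00235 in embryos, against 1.25 and 1.14 in adults, and sdz-24, pes-8 and pes-7. The pes genes taken alone were divided, with 5 higher and 4 lower of 9, 4 and 3 of them in all 4.

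The endoderm and mesoderm specification genes were higher as well. Of 11 GATA factor genes 10 were higher (8 in all 4, median 3.61). med-1, which specifies the EMS daughters, had 0.395 and 0.457 in embryos, against 0.00257 and 0.00339 in adults, and was at least 38.3-fold higher, and its partner med-2 was at least 45.7-fold higher. end-1, which starts the endoderm, had 1.91 and 1.78 in embryos, against 0.00392 and 0.00324 in adults, and was at least 167-fold higher, while end-3, with 0.947 and 1.13 in embryos, against 0.0430 and 0.0423 in adults, was 24.3-fold higher. The intestinal factor elt-7 was 5.45-fold higher. elt-2, which keeps intestinal genes on throughout life, was the only member lower, at 0.793 and 0.681 in embryos, against 1.102 and 0.976 in adults (-0.50 ± 0.14), and does not keep that direction in all 4. In the epidermis, elt-1 was 9.74-fold and egl-18 32.97-fold higher.

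T-box factors counted 17 higher and 2 lower of 19, and 10 were not above background in adults (15 higher and 2 lower in all 4, median 5.56). Of the 8 members above background on all 4 arrays 7 were higher and 1 lower (median 2.64). tbx-37 and tbx-38, which act in descendants of the ABa cell, were both at background in adults. tbx-37 had 1.59 and 1.55 in embryos, against 0.00209 and 0.00272 in adults, which is at least 142.1-fold higher, and tbx-38, with 0.978 and 1.09 in embryos, against 0.00647 and 0.00645 in adults, was at least 92.9-fold higher. tbx-11 had 5.64 and 5.303 in embryos, against 0.0245 and 0.0336 in adults, and was 191-fold higher. Lower were tbx-34, at least 86.02-fold with 0.00309 and 0.00284 in embryos, against 1.01 and 0.763 in adults, and mls-1, which specifies uterine muscle, 2.68-fold, a call that the normexp correction ends. All 8 Hox-type genes were higher, 4 of them in all 4 (median 2.26): the anterior gene ceh-13 had 4.87 and 4.49 in embryos, against 0.194 and 0.167 in adults, and was 25.97-fold higher, and the posterior gene nob-1, with 1.58 and 1.26 in embryos, against 0.144 and 0.123 in adults, was 10.6-fold higher. pal-1, a caudal-type gene whose RNA is maternal, was 3.02-fold higher but turns negative with the spike-in scaling.

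Of 54 ceh homeobox genes 40 were higher and 7 lower (median 2.51, 32 and 6 in all 4). ceh-51, which acts in the MS lineage, had 3.87 and 3.71 in embryos, against 0.00510 and 0.00292 in adults, and was at least 342-fold higher, and the Distal-less-type gene ceh-43 had 4.94 and 4.47 in embryos, against 0.0377 and 0.0400 in adults, and was 121-fold higher. On the adult side stood ceh-60, a PBX-type regulator of yolk genes, with 0.0325 and 0.0298 in embryos, against 0.834 and 0.605 in adults, and 22.8-fold lower, and ceh-18, a POU gene of the gonadal sheath, 15.8-fold lower. Basic helix-loop-helix genes gave 17 higher and 2 lower of 22 (14 higher and 2 lower in all 4, median 3.63), and 8 were not above background in adults. Of the 11 members above background on all 4 arrays 7 were higher and 1 lower (median 1.04). The neurogenic genes ngn-1, cnd-1 and hlh-14 were at background in adults and at least 89.2, 99.9 and 150.3-fold higher, with ngn-1 at 1.01 and 0.964 in embryos, against 0.00204 and 0.00267 in adults. hlh-1, the MyoD-type gene of body muscle, had 2.96 and 2.31 in embryos, against 0.361 and 0.298 in adults, and was 7.99-fold higher. ref-1, a target of Notch signals in the early embryo, was 47.2-fold higher, with 6.06 and 6.57 in embryos, against 0.116 and 0.154 in adults.

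In the Notch pathway 21 of 24 genes were higher and 1 lower, 10 and 1 in all 4 (median 1.54, -0.13 with the spike-in scaling). Among ligands, dsl-2 had 29.4 and 29.2 in embryos, against 0.0365 and 0.0537 in adults, and was 662-fold higher, dsl-1 was at least 277-fold higher, lag-2 at least 18.3-fold higher, at 0.207 and 0.199 in embryos, against 0.00468 and 0.00360 in adults, and apx-1 2.34-fold higher. Of the receptors, lin-12 had 3.88 and 3.43 in embryos, against 0.119 and 0.114 in adults, and was 31.3-fold higher, and glp-1, whose RNA the germ line makes too, had 2.303 and 2.63 in embryos, against 1.03 and 1.26 in adults, and was 2.16-fold higher. Both apx-1 and glp-1 turn negative with the spike-in scaling. The co-ligand gene osm-11 was the 1 member lower, 82.5-fold, with 0.126 and 0.124 in embryos, against 9.38 and 11.4 in adults.

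In the Wnt pathway 23 of 27 were higher and 2 lower, 11 and 2 in all 4 (median 1.57, -0.10 with the spike-in scaling). The ligand genes cwn-1 and cwn-2 were 6.76 and 11.9-fold higher, with cwn-2 at 2.17 and 1.97 in embryos, against 0.179 and 0.169 in adults, and the maternal ligand gene mom-2 had 21.4 and 24.8 in embryos, against 7.15 and 9.64 in adults, and was 2.78-fold higher, negative with the spike-in scaling. Of the receptors the Frizzled genes cfz-2 and mom-5 were 71.1 and 9.45-fold higher, with cfz-2 at 2.98 and 2.79 in embryos, against 0.0431 and 0.0382 in adults, and the Ryk-type gene lin-18 was 5.18-fold lower. Downstream, the TCF gene pop-1 had 6.39 and 5.95 in embryos, against 0.605 and 0.739 in adults, and was 9.23-fold higher, and the beta-catenin gene bar-1 had 0.0962 and 0.0837 in embryos, against 0.450 and 0.433 in adults, and was 4.92-fold lower.

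Genes of dividing cells were higher in embryos. Of 68 cell cycle, replication and kinetochore genes 59 were higher and 1, klp-7, was lower, which the median scaling ends, but 11 were higher in all 4, and the median of 1.45 became -0.21 with the spike-in scaling. wee-1.1, a kinase that holds back mitosis, had 1.43 and 1.34 in embryos, against 0.00392 and 0.00477 in adults, and was at least 125-fold higher. cdc-25.2, the phosphatase with the opposite action, had 14.03 and 12.3 in embryos, against 0.657 and 0.847 in adults, and was 17.6-fold higher, and the replication licensing gene cdt-1 was 9.09-fold higher, at 3.79 and 3.73 in embryos, against 0.358 and 0.477 in adults. cdk-1, the kinase that drives mitosis, had 33.7 and 34.2 in embryos, against 10.2 and 12.2 in adults (1.61 ± 0.21), and turns negative with the spike-in scaling. mcm-5, of the replicative helicase, had 41.9 and 40.4 in embryos, against 11.1 and 13.4 in adults (1.75 ± 0.22), and stops passing with it. Cell polarity genes gave 12 higher of 15 and none lower by limma's test (median 0.86, -0.81 with the spike-in scaling), and 2 were higher in all 4. par-2, which marks the posterior cortex of the zygote, had 5.303 and 4.84 in embryos, against 0.249 and 0.272 in adults, and was 19.4-fold higher, and lgl-1 was 5.38-fold higher.

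Histone genes were higher in 43 of 47 cases and lower in 3, with 33 and 1 in all 4 (median 2.53). his-24, a linker histone gene, had 68.2 and 60.2 in embryos, against 0.616 and 0.464 in adults, and was 119.8-fold higher. his-72, an H3.3 gene, had 130.2 and 122 in embryos, against 23.3 and 26.3 in adults, and was 5.09-fold higher. The gene his-4, at background in adults, was at least 116-fold higher. Against the rest, the H3.3-type gene his-70 was at background in embryos, with 0.00994 and 0.00975 in embryos, against 1.58 and 1.07 in adults, and at least 127-fold lower. Core histone copies are nearly identical in sequence, and their single values are uncertain for that reason. Cell death and engulfment genes counted 14 higher and 5 lower of 26 (4 higher and 4 lower in all 4, median 0.72, -0.95 with the spike-in scaling): egl-1, the trigger of cell death, had 0.176 and 0.159 in embryos, against 0.0347 and 0.0260 in adults, and was 5.56-fold higher, ced-9, which restrains it, was 7.62-fold higher, and the caspase gene ced-3 did not pass, at 2.26 and 2.43 in embryos, against 1.44 and 1.72 in adults.

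F-box genes, which encode the substrate-binding parts of ubiquitin ligases, are given by subfamily. In the fbxb genes 96 of 97 were higher in embryos, 95 of them in all 4, with a median of 8.23, but 74 were not above background in adults and so entered through embryos alone. Of the 15 members above background on all 4 arrays 14 were higher and 1 lower (median 5.94). fbxb-84 had 13.4 and 12.9 in embryos, against 0.00317 and 0.00554 in adults, and was at least 1183-fold higher, with bounds of 932-fold for fbxb-54 and 785-fold for fbxb-10, also higher. The 1 exception was fbxb-97, with a difference of -2.53 and relative signals of 0.0218 and 0.0205 in embryos and 0.148 and 0.101 in adults. In the fbxc genes 33 of 42 were higher and 7 lower (27 and 5 in all 4, median 4.37), and fbxc-51, with 8.99 and 7.55 in embryos, against 0.00638 and 0.0104 in adults, was at least 743-fold higher. Of the 19 members above background on all 4 arrays 12 were higher and 5 lower (median 0.92). The fbxa genes went mostly the other way, with 70 lower and 30 higher of 120 (55 and 14 in all 4, median -1.28). fbxa-72 had 0.00554 and 0.00781 in embryos, against 2.53 and 2.37 in adults, and was at least 240.3-fold lower. Of the 67 members above background on all 4 arrays 17 were higher and 31 lower (median -0.44). By position, 54 of the 97 fbxb genes and 34 of the 42 fbxc genes lie on chromosome II, while 43 and 50 of the 120 fbxa genes lie on chromosomes III and V. Subfamily and chromosome were set side by side after the values were seen. Paralogs of these families are alike in sequence, and 1 probe may report more than 1 gene. The whole list of F-box, BATH and MATH genes counted 179 higher and 106 lower of 316 (143 higher and 85 lower in all 4, median 1.13, -0.54 with the spike-in scaling), and 106 were not above background in adults. Among the 140 members above background on all 4 arrays 57 were higher and 54 lower, and the median was -0.15, of the opposite sign. math-22 and math-46 were at least 44.2 and 66.8-fold lower.

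**Figure D4:**
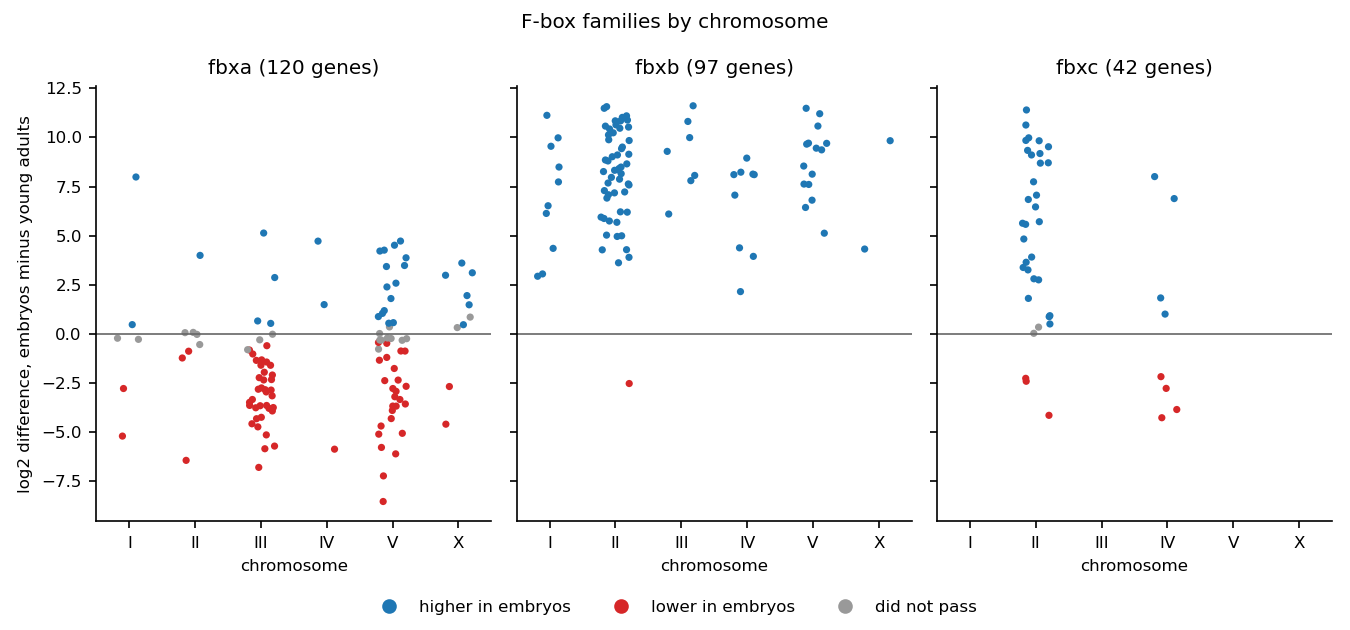
Log2 difference of embryos minus young adults (vertical axis) of every measured fbxa, fbxb and fbxc gene by chromosome; each point is a gene, blue where higher in embryos, red where lower and grey where it did not pass. The fbxb panel holds 96 blue points and 1 red point, and the fbxa panel 70 red and 30 blue points, most of them on chromosomes III and V.

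Genes of the epidermis differed by the structure they build. Of 16 genes of the precuticle and embryonic sheath, the matrix that shapes the embryo before the cuticle, 15 were higher, 14 of them in all 4, and cut-4 was lower, also in all 4 (median 4.43). noah-1 had 7.29 and 5.94 in embryos, against 0.207 and 0.129 in adults, and was 40.3-fold higher, cut-3 had 7.27 and 7.58 in embryos, against 0.0114 and 0.0188 in adults, and was 506-fold higher, and sym-1, with 8.82 and 7.05 in embryos, against 0.454 and 0.274 in adults, was 22.4-fold higher. The matrix gene let-653 was 8.09-fold higher. Epidermal junction and elongation genes gave 22 higher and 7 lower of 31 (9 higher and 4 lower in all 4, median 1.33, -0.34 with the spike-in scaling): the junction gene dlg-1 had 2.903 and 2.63 in embryos, against 0.324 and 0.364 in adults, and was 8.04-fold higher, and the intermediate filament gene ifb-1, with 1.38 and 1.302 in embryos, against 12.6 and 10.9 in adults, was 8.77-fold lower. Hedgehog-related and Patched-related genes counted 42 higher and 20 lower of 75 (23 higher and 16 lower in all 4, median 1.28, -0.39 with the spike-in scaling), wrt-10 being 42.2-fold higher and grd-3 221-fold lower. Among 33 astacin metalloprotease genes 18 were lower and 5 higher (1 higher and 14 lower in all 4, median -1.05). Of the 17 members above background on all 4 arrays 2 were higher and 7 lower (median -0.87). hch-1, the protease that lets the larva out of the egg, was at least 313-fold higher, with 3.81 and 3.17 in embryos, against 0.00219 and 0.00293 in adults, and nas-37, which opens the old cuticle at moults, was at least 47.4-fold lower. Basement membrane genes split into 7 higher and 9 lower of 18 (4 higher and 8 lower in all 4, median -0.82, 0.09 with the median scaling): the type IV collagen genes emb-9 and let-2 were 4.94 and 4.31-fold lower, and the laminin genes lam-1 and lam-3 11.8 and 6.86-fold higher.

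Structural muscle genes were mostly lower in embryos. Of 43 sarcomere and attachment genes 31 were lower, 26 of them in all 4, and 5 higher (median -2.26). The body wall myosin gene unc-54 had 1.01 and 1.07 in embryos, against 15.9 and 15.8 in adults, and was 15.2-fold lower (-3.93 ± 0.19), myo-3 had 2.42 and 2.38 in embryos, against 13.7 and 12.5 in adults, and was 5.47-fold lower, and the pharyngeal myosin gene myo-2 was 16.3-fold lower. The troponin gene tnt-2 had the largest difference of the list, with 0.270 and 0.302 in embryos, against 39.3 and 42.8 in adults, and 144-fold lower. The 5 higher ones were the SRF-type regulator unc-120 (3.598-fold), the myosin chaperone gene unc-45 (3.37-fold), the integrin gene pat-3 (3.15-fold), the kindlin gene unc-112 (1.44-fold) and the actin gene act-2, and none of these 5 was higher in all 4 scalings, with pat-3, unc-112 and act-2 negative with the spike-in scaling.

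In the nervous system, cilium genes were mostly higher and neuropeptide genes mostly lower in embryos. Of 37 cilium and intraflagellar transport genes 33 were higher, 12 of them in all 4, and che-10 and dyf-3 were lower, though neither with the median or quantile scaling (median 1.68, 0.01 with the spike-in scaling). daf-19, the RFX factor that switches cilium genes on, had 2.33 and 2.33 in embryos, against 0.327 and 0.388 in adults, and was 6.55-fold higher, osm-6 was 4.503-fold higher, at 0.214 and 0.202 in embryos, against 0.0484 and 0.0441 in adults, and nphp-1, at background in adults, at least 15.03-fold higher. Of 103 FMRFamide-like and other neuropeptide genes 85 were lower, 76 of them in all 4, and 11 higher, 4 of them in all 4 (median -2.70). flp-1 had 0.315 and 0.303 in embryos, against 3.42 and 3.17 in adults, and was 10.6-fold lower, and nlp-26 was at least 647-fold lower, with 0.00637 and 0.00526 in embryos, against 6.75 and 6.43 in adults. nlp-31, which encodes antimicrobial peptides of the epidermis, was 9.85-fold higher, with 4.71 and 4.22 in embryos, against 0.463 and 0.442 in adults. Their processing enzymes were lower too, egl-3 being 12.2-fold and egl-21 10.67-fold lower.

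Synaptic and transmitter genes were divided, 12 higher and 21 lower of 45 (4 higher and 9 lower in all 4, median -0.40, 0.51 with the median scaling). The GABA synthesis gene unc-25 had 0.280 and 0.265 in embryos, against 1.61 and 1.49 in adults, and was 5.68-fold lower, and unc-30, the regulator of GABA neuron fate, had 0.296 and 0.295 in embryos, against 0.0249 and 0.0211 in adults, and was 12.9-fold higher. The octopamine synthesis gene tbh-1 was 354-fold lower, with 0.0340 and 0.0315 in embryos, against 9.895 and 13.6 in adults. Of 32 insulin-like peptide genes 23 were lower and 4 higher (3 higher and 22 lower in all 4, median -2.50). Of the 14 members above background on all 4 arrays 2 were higher and 9 lower (median -1.51). ins-7 had 0.00241 and 0.00457 in embryos, against 0.373 and 0.433 in adults, and was at least 39.5-fold lower, daf-28 was at least 14.1-fold lower, and ins-2, at background in adults with 0.710 and 0.683 in embryos, against 0.00815 and 0.00772 in adults, was at least 62.9-fold higher. Potassium and ligand-gated channel genes gave 93 lower and 18 higher of 139 (7 higher and 60 lower in all 4, median -1.18).

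Receptor families were mostly dim. Only 236 of 1336 chemoreceptor genes on the array were measured, and of these 135 were higher, 69 lower and 109 not above background in adults (85 higher and 54 lower in all 4, median 1.38, -0.29 with the spike-in scaling). A gene entered through the group where it was visible, so the counts do not describe the whole family. Of the 65 members above background on all 4 arrays 26 were higher and 22 lower (median 0.10). str-148 had 0.308 and 0.307 in embryos, against 0.00245 and 0.00275 in adults, and was at least 27.8-fold higher, and str-176, with 0.00222 and 0.00248 in embryos, against 2.07 and 1.95 in adults, at least 197-fold lower. Nuclear hormone receptor genes were split, 88 higher and 77 lower of 202, close to the shares of all genes (21 higher and 46 lower in all 4, median 0.28, -1.39 with the spike-in scaling). nhr-25, which acts in epidermal fate, had 2.23 and 1.704 in embryos, against 0.0792 and 0.0857 in adults, and was 23.7-fold higher, sex-1, which counts X chromosomes in sex determination, had 18.4 and 16.9 in embryos, against 0.469 and 0.556 in adults, and was 34.5-fold higher, and nhr-114 had 0.223 and 0.184 in embryos, against 4.71 and 4.94 in adults, and was 23.8-fold lower. The steroid receptor gene daf-12 was 5.32-fold lower, with 0.0391 and 0.0369 in embryos, against 0.199 and 0.206 in adults.

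**Figure D5:**
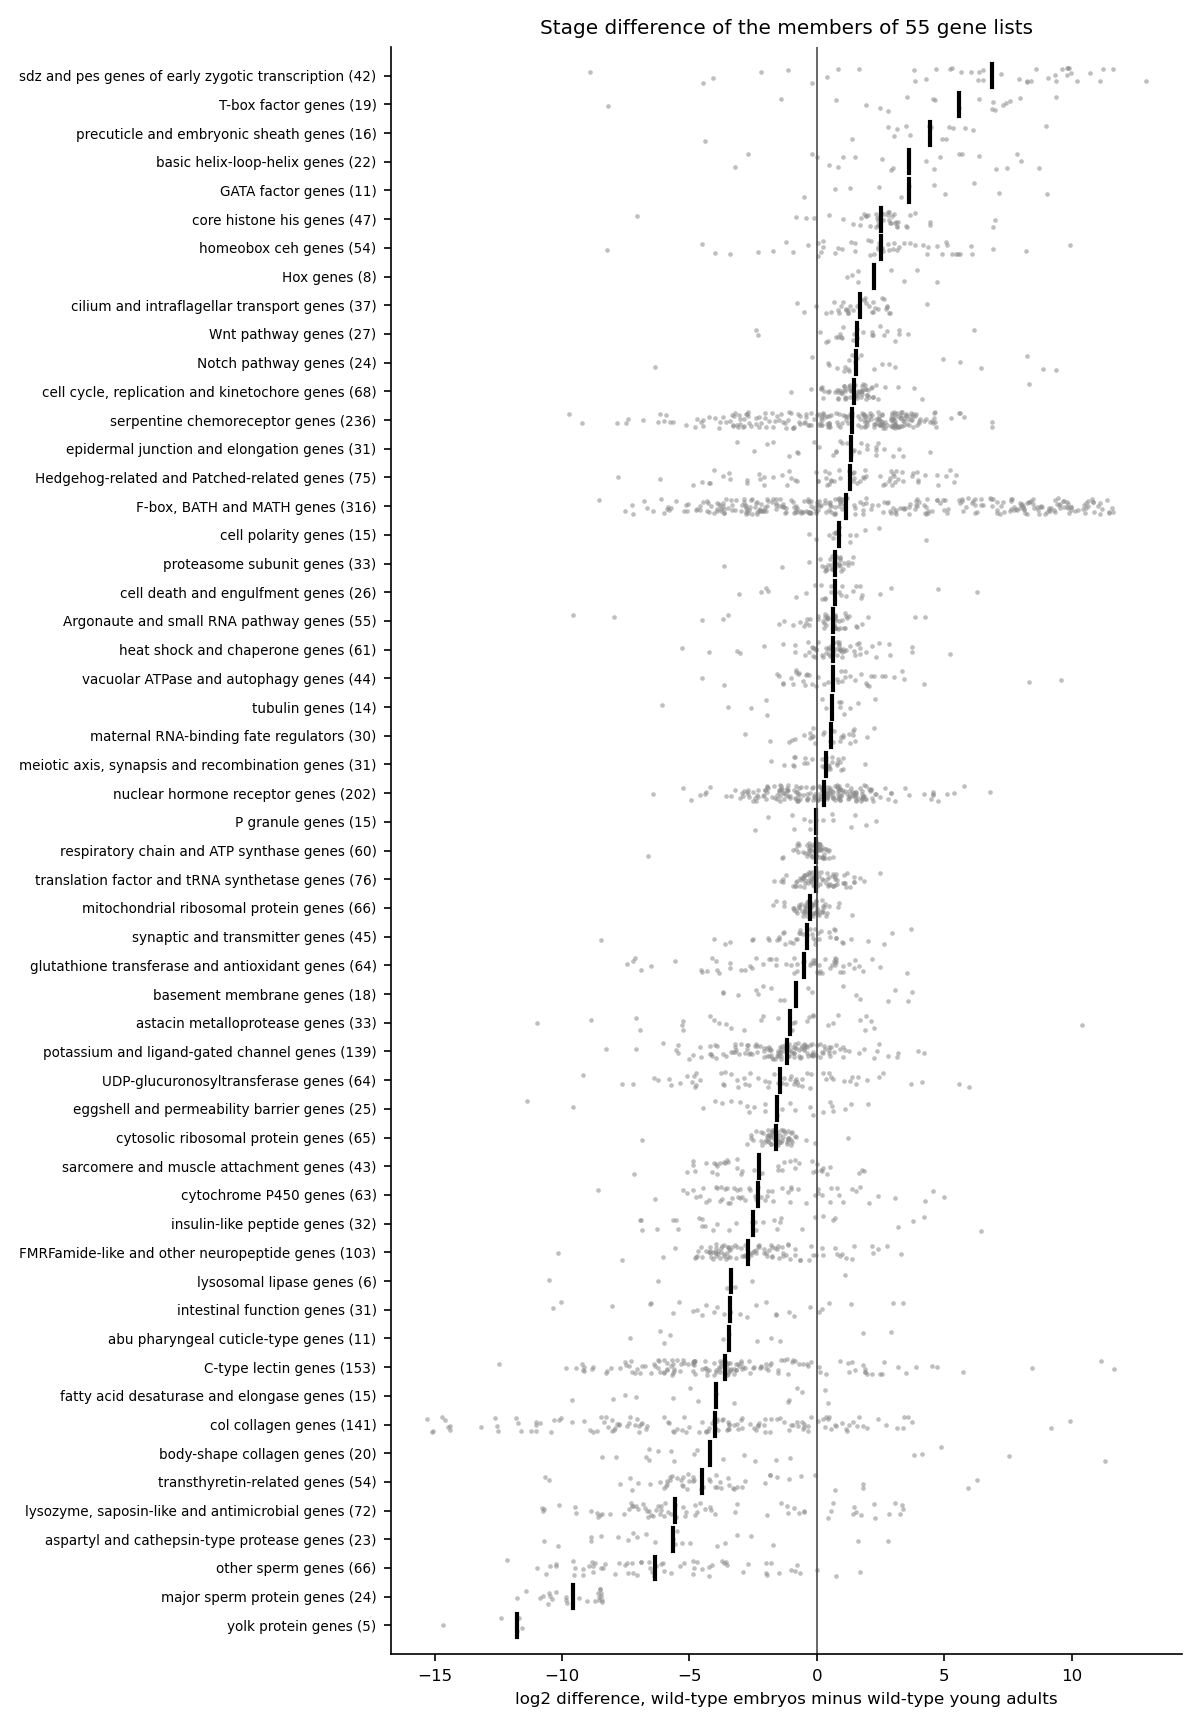
Log2 difference of wild-type embryos minus wild-type young adults (horizontal axis) of each measured member (grey point) of 55 gene lists, with the number of members in brackets; the black bar is the list's median. Medians run from 6.89 in the sdz, pes and vet genes to -11.78 in the yolk protein genes.

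Cytosolic ribosomal protein genes were lower in embryos, and lists of the mitochondrial ribosome, the respiratory chain and translation had medians near 0 with the 75th percentile scaling. Of 65 cytosolic members 63 were lower, 44 of them in all 4, with a median of -1.61, which was -0.71 with the median scaling. rpl-3 had 23.9 and 22.2 in embryos, against 101 and 112 in adults, and was 4.63-fold lower, and rps-6, with 27.2 and 24.4 in embryos, against 94.1 and 102.8 in adults, was 3.82-fold lower. The 1 higher member was rpl-41.1, at 43.02 and 44.7 in embryos, against 19.4 and 18.4 in adults (1.21 ± 0.14), negative with the spike-in scaling, and rpl-42 stood apart at least 26.02-fold lower, with 0.00238 and 0.00213 in embryos, against 0.305 and 0.230 in adults. Mitochondrial ribosomal protein genes mostly did not pass, with 5 higher, 24 lower and 37 not passing of 66 (0 higher and 2 lower in all 4, median -0.26). Respiratory chain and ATP synthase genes gave 5 higher, 15 lower and 40 not passing of 60 (0 higher and 3 lower in all 4, median -0.02). Here paired subunits parted: asb-1, the ATP synthase subunit gene of the germ line, did not pass, at 19.95 and 21.8 in embryos, against 18.4 and 19.3 in adults, and asb-2, its somatic counterpart, was 2.49-fold lower, at 12.5 and 11.8 in embryos, against 30.7 and 29.6 in adults. The cytochrome c gene cyc-2.2 was 98.6-fold lower, with 0.0532 and 0.0494 in embryos, against 5.47 and 4.67 in adults. Translation factor and tRNA synthetase genes counted 30 higher and 23 lower of 76 (1 higher and 3 lower in all 4, median -0.03). The medians of these last 3 lists turn with the scaling: with the median scaling they were 0.65 for the mitochondrial ribosome, 0.89 for respiration and 0.88 for translation, and with the spike-in scaling -1.93, -1.69 and -1.70. After quantile normalization respiration was at 0.02 and translation at 0.09.

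Proteasome genes gave 24 higher and 2 lower of 33 (0 higher and 1 lower in all 4, median 0.73, -0.94 with the spike-in scaling). The paralogs rpn-6.1 and rpn-6.2 parted, with rpn-6.1 at 10.4 and 11.03 in embryos, against 3.81 and 4.195 in adults, and 2.68-fold higher, negative with the spike-in scaling, and rpn-6.2 at 0.0866 and 0.0952 in embryos, against 1.21 and 1.09 in adults, and 12.6-fold lower. Tubulins also parted by member, 8 higher and 5 lower of 14 (1 higher and 5 lower in all 4, median 0.60, -1.07 with the spike-in scaling): tba-1 had 91.4 and 91.7 in embryos, against 28.7 and 31.8 in adults (1.60 ± 0.15, negative with the spike-in scaling), the ciliary gene tbb-4 was 4.89-fold higher, and tba-4 was 66.9-fold lower, with 0.0842 and 0.0884 in embryos, against 5.85 and 5.696 in adults. Heat shock and chaperone genes were higher in 39 and lower in 9 of 61 (8 higher and 5 lower in all 4, median 0.64, -1.03 with the spike-in scaling). The inducible small heat shock gene hsp-16.1 had 94.3 and 80.6 in embryos, against 11.6 and 11.98 in adults, and was 7.396-fold higher. Its relative hsp-16.2 had 33.3 and 29.9 in embryos, against 2.37 and 2.35 in adults, and was 13.4-fold higher. Whether the hypochlorite step altered these genes was not tested, and it coincides with stage. The constitutive gene hsp-1 was 1.800-fold lower, at 37.4 and 38.5 in embryos, against 66.6 and 69.95 in adults, which the median scaling undoes, and hsp-43 39.7-fold lower.

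Vacuolar ATPase genes were mostly lower and autophagy genes mostly higher in embryos. Their joint list counted 22 higher and 16 lower of 44 (9 higher and 6 lower in all 4, median 0.61, -1.05 with the spike-in scaling). None of 20 vha genes was higher by limma's test and 16 were lower, 6 of them in all 4 (median -0.77, which the median scaling turns to 0.14), with the intestinal subunit gene vha-6 at 1.204 and 1.19 in embryos, against 27.1 and 27.3 in adults, and 22.8-fold lower. Of 12 atg genes 11 were higher, 5 of them in all 4. lgg-1, the ubiquitin-like protein of the autophagosome, had 58.5 and 58.9 in embryos, against 12.1 and 12.4 in adults, and was 4.79-fold higher. sepa-1 and epg-2 bring P granule proteins to autophagy in the embryonic soma. sepa-1 had 17.3 and 17.5 in embryos, against 0.0186 and 0.0272 in adults, and was 774-fold higher, and epg-2, with 28.8 and 23.8 in embryos, against 0.0826 and 0.0805 in adults, was 321-fold higher.

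Several large differences lay outside the families above. The chitinase gene cht-1 had 45.3 and 38.8 in embryos, against 0.0479 and 0.0835 in adults, and was 663-fold higher, the Skp1-type gene skr-9 had 31.4 and 30.8 in embryos, against 0.0416 and 0.0495 in adults, and was 685-fold higher, and btb-10, above background on 1 adult array, had 12.1 and 11.51 in embryos, against 0.0110 and 0.0256 in adults. ccch-2, sgnh-1 and mtre-1 were at background in adults and at least 972, 1115 and 848-fold higher, with ccch-2 at 10.71 and 10.8 in embryos, against 0.00273 and 0.00361 in adults. Among genes known by a sequence name alone, Y71A12B.11 and Y27F2A.8 were higher and above background on 1 adult array, Y27F2A.8 with 8.92 and 8.66 in embryos, against 0.00635 and 0.0258 in adults, and C17F4.7 and Y45F10C.4 were 2019 and 1385-fold lower.

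By chromosome, the shares of protein-coding genes called in all 4 scalings differed. On the X chromosome 22.8% of 2148 genes were higher in all 4, against 13.5% of the 15326 protein-coding genes tested, and 34.7% were lower, against 32.7%. Chromosomes IV and V held the highest shares of lower genes, 40% of 2600 and 39.1% of 3138, and chromosome III the lowest, 23.5% of 2254. The median difference was -0.38 on chromosome IV and -0.56 on chromosome V, against 0.33 on chromosome III, 0.09 on X and 0.02 over all.

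The adult arrays differed from each other in several lists of cuticle genes. Over all genes the log2 difference of adult array 1 minus adult array 2 had a median of -0.04, and 394 of 16126 genes were more than 2-fold higher on array 1. Of 11 abu genes, whose products line the pharyngeal cuticle, 9 were more than 2-fold higher on array 1, with a median of 1.86, and the body-shape collagens had a median of 0.70, the precuticle genes of 0.54 and the astacin genes of 0.43. Of the col genes 32 of 141 were more than 2-fold higher on array 1. abu-6 had 0.302 and 0.284 in embryos, against 7.54 and 1.92 in adults, and no longer passes without adult array 1. abu-1 had 0.00818 and 0.00798 in embryos, against 2.46 and 0.690 in adults. The stage difference for the abu list, 6 lower and 1 higher of 11 (0 higher and 6 lower in all 4, median -3.45), thus rests on adult values that differ between the arrays, and abu-14 did not pass, at 2.96 and 3.09 in embryos, against 1.399 and 0.530 in adults (1.81 ± 0.80, adjusted p = 0.071). The embryo arrays differed by a median of 0.06 in that list.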

How the data were processed

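RNA of whole embryos and adults (0.2 µg) was labelled in 1 colour and hybridised to Agilent worm arrays, 1 sample an array. The deposited intensity values are the processed signals of each array, background-subtracted and detrended by Agilent Feature Extraction 10.7.1.1, per the file headers and the submitters' processing notes. The authors' deposited log2 value table is centred on each stage's wild-type mean and so holds no stage difference. It served as a check: 100% of 43585 shared probes lay within 0.01 of the values used here, centred likewise.

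Each array's log2 signal was reduced by its 75th percentile over non-control probes. Spots flagged as outliers were left out (18 probes). Sequence names in the files named 31484 probes, and transcript accessions, matched to RefSeq's WBcel235 gene table, named 3673. The array was designed on ce6 (WS190), so no coordinates are given. The brightest measured probe stood for a gene with several, and of 4002 called genes with several probes 172 had probes of both directions. Embryos and adults were compared in limma 3.58.1 (R 4.3.3) over all 8 arrays in 4 groups, with Benjamini-Hochberg adjustment over 16126 genes at 0.05. A bound compares the mean of the bright group with, per array of the dim group, the higher of the probe's own signal and the lowest signal among probes well above background. The number of arrays limits the precision. In simulated data 200 of 16126 genes were changed. The test recovered 2% of those at 1.5-fold, 26% at 2-fold, 84% at 4-fold and 92% at 8-fold, with 3 false among 105 calls. In the data themselves 84% of the genes were called. The adjusted threshold depends on the share of changed genes, so these recoveries do not describe this comparison.

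Named genes are the 10 largest differences each way among named genes visible in each group, if only by 1 array, the 8 largest bounds each way, key members and up to 4 called members each way of every list, the stage markers and, each way, 2 genes known by sequence name. Also named were act-2 and fbxb-97, added once their values were known. The lists and key members were chosen with earlier results of these data known. Alternatives were other scalings, background correction, filters, probe rules, models and arrays left out. The normexp alternative used median spot signals (offset 50), since the mean signal was not at hand. Key members hlh-25, fbn-1, grd-1, unc-17 and gst-4 gave no value. Promoter sequences were not analysed here. Figures used matplotlib 3.10.9.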

Additional observations from a re-analysis of the deposited data

Results flagged for a closer look

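Probes without a gene name lie outside the comparison of named genes. Of these, 4185 were well above background on both arrays of wild-type embryos or of wild-type adults. They were looked at again because data that no gene-level comparison uses carried signal. By limma's adjusted p, 2025 were higher and 1204 lower in embryos. What they report is not given here.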

How the results depend on the processing

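The total of called genes lay between 10200 and 14292 over all settings set out at the start, against 13552 in the main setting, and the lowest comes from testing only the 12447 genes above background on all 4 wild-type arrays. The spike-in scaling, chosen after the data were seen, gave 2227 higher and 11770 lower, 15.9% of calls higher, against 6682 and 6870, 49.3% higher. With the median scaling 62.7% of calls were higher (8961 and 5331). Leaving out 1 array gave totals of 12309 to 13742, with 5902 to 6810 higher and 6407 to 6932 lower. The deviations of same-numbered embryo and adult arrays correlated at 0.043 in wild type and at -0.28 in the animals that lack seip-1. With 2 arrays in a group these values cannot decide whether replicate numbers pair the samples. The fit with a replicate block called 12821 genes. Of 55 list medians 47 kept their sign under every setting set out at the start and 31 in all 4 scalings.

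Of 240 genes named, 25 turned negative with the spike-in scaling: act-2 (-1.27), apx-1 (-0.44), asb-1 (-1.52), cdk-1 (-0.063), ced-3 (-1.095), elt-3 (-0.37), fasn-1 (-1.08), glp-1 (-0.56), lipl-7 (-0.57), mbk-2 (-0.32), meg-1 (-0.32), meg-4 (-0.18), mex-5 (-0.24), mom-2 (-0.19), oma-1 (-0.37), pal-1 (-0.072), pat-3 (-0.014), perm-3 (-0.54), pie-1 (-0.64), pos-1 (-0.63), rpl-41.1 (-0.46), rpn-6.1 (-0.25), spe-48 (-0.92), tba-1 (-0.070) and unc-112 (-1.14). Another 9 stayed positive there but no longer passed, among them nos-2 (0.32), meg-3 (0.27), unc-120 (0.18) and rad-51 (0.24). With the median scaling che-10 (0.15), dyf-3 (0.41), elt-2 (0.41), gld-1 (0.71), hsp-1 (0.061) and rec-8 (0.024) turned positive, and with quantiles che-10 (0.11) and dyf-3 (0.32). The mean of probes gave 1.84 for sqt-3, and the filter on all 4 arrays gave 1.66 for alg-4 through its other probe. Without adult replicate 1, abu-6 (-2.71) and col-10 (-1.79) no longer passed and abu-14 (2.52) did. The modest calls of act-2, dyf-3, elt-2, fasn-1 and unc-112 were each lost without at least 1 array. The cause of these changes was not tested. Stage coincides with slide and with the hypochlorite step, and genes near background are limited by the signal over it. Promoter motifs were not run.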

Other observations

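Further gene families, chosen after their values were seen and so given as a description, divided by stage in the same fit. All 15 nspc genes, named for nematode-specific peptides, were lower in embryos (15 in all 4 scalings, median -8.59), and 8 of them were not above background there. Of 14 scl genes, which encode secreted SCP-type proteins, 13 were lower (1 higher and 13 lower in all 4, median -4.13), and 12 were not above background in embryos. Of 14 spig genes 13 were lower (1 higher and 12 lower in all 4, median -5.67), and 2 were not above background in embryos. Of 8 ttbk genes, which encode tau tubulin kinase-type proteins, 7 were lower (7 in all 4, median -8.91), and 4 were not above background in embryos. The direction of the genes at background was fixed by their entry.

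In the other direction, 13 of 18 skr genes, which encode Skp1-type parts of ubiquitin ligases, were higher and 4 lower (10 and 3 in all 4, median 3.30). Of 13 bus genes, several of which affect the nematode surface, 11 were higher and none lower by limma's test (6 higher in all 4, median 2.85). Of 9 forkhead fkh genes 7 were higher and 2 lower (6 and 1 in all 4, median 3.62). All 17 taf genes, for parts of the general transcription machinery, were higher (median 1.41), as were all 11 rpb genes, for subunits of RNA polymerase II (median 1.37), but 4 and 0 of them were higher in all 4 scalings.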
